A study of Mus musculus with 20 samples.

Results

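Osteosarcomas of mice with a DNA-contact mutant of p53 were compared with osteosarcomas of mice with a structural mutant. The contact group held 8 tumours, 3 from p53R245W/+ and 5 from p53R270H/+ mice (here R245W and R270H), and the structural group held 6 tumours from p53R172H/+ mice (here R172H). These 14 libraries are part of 20 in the study. Each contact genotype was averaged first and both averages were given equal weight, so that the 5 R270H libraries did not outweigh the 3 R245W libraries. Genes were described where both contact genotypes lay on the same side of R172H, which held for 12647 of 20616 tested genes (61.3%), of which 6180 lay above R172H (30%) and 6467 below (31.4%). Both contact genotypes are set against the same 6 R172H libraries, so a shared side is partly fixed by those libraries.

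The strain of all mice was a C57BL/6J and 129S/SvJae mix, and every mouse of the compared groups carried 1 missense allele and 1 further allele labelled +. A set of 4 tumours from p53+/- mice (here p53 het), which carry no missense allele, shared the model fit and gives the level of each gene without a mutant protein. The labels call the libraries separate primary tumours, and they leave out whether the + allele was lost in a tumour, whether 2 tumours came from 1 mouse, or the sex of the mice, their age or the site of the tumour. RNA was sequenced from whole frozen tumours, so fewer cells of a type and less RNA per cell cannot be told apart.

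The p53 protein, encoded by Trp53, is a transcription factor that binds DNA through a folded central domain and halts growth or kills the cell after damage. Contact mutants change an arginine that touches DNA and leave most of the fold in place, whereas structural mutants disturb the fold of the domain near its zinc ion. Mutant p53 proteins often accumulate in tumours, and bone is a tissue in which mice with 1 altered p53 allele often develop tumours.

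The changed codons show where the mutants lie in the gene. The following lines give 33 bases of the reference coding strand of Trp53 (GENCODE M21 transcript Trp53-203, GRCm38, chromosome 11, plus strand), 5′ to 3′, with the reference arginine codon in capitals.
R172H: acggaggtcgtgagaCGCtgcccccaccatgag
R245W: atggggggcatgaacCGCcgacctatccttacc
R270H: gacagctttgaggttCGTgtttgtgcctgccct
The R172H codon lies in exon 5 at chr11:69588511-69588513, the R245W codon in exon 7 at chr11:69589210-69589212 and the R270H codon in exon 8 at chr11:69589607-69589609. All 3 codons encode arginine in the reference. The deposited table gives counts per gene, so the mutant bases themselves were not seen here.

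Total counts were 20.1 to 28.8 M (megacounts) for R172H libraries, 22 to 24 M for R245W and 20.7 to 26.8 M for R270H. Where a library had no count of a gene, up to 3 counts remained possible, which was 0.104 to 0.149 CPM (counts per megacount) in these libraries and covers counting error only. All 19 osteoblast and osteocyte markers were measured, and their summed level was 32702 to 134097 CPM in R172H, 36449 to 116471 CPM in R245W and 45600 to 138711 CPM in R270H tumours, and Sost was the marker with no count in at least 1 library. On the second principal component of all genes, which held 12.5% of the variance, R270H libraries scored 32.7 to 63.8 and R245W libraries -82.2 to -43.7, so the contact genotypes lay on opposite ends. The R172H libraries scored -43.7 to 0.90, between them. Libraries p53 het 1 and 2 scored -3.21 and -19.7, and p53 het 3 and 4 scored 51.1 and 6.58. Sample titles of R172H, R245W and p53 het 1 and 2 carry a serial number. Those of R270H and p53 het 3 and 4 do not, and these libraries scored above all others on this component. For R270H this title difference and the genotype cannot be told apart within the mutants. R245W against R172H is free of this title difference, and its values are given beside most of those of the contact mean. All serial numbers of R245W titles are lower than those of R172H titles, so their order and the genotype cannot be told apart. The labels do not say what the serial numbers stand for.

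Trp53 levels overlapped between both kinds of mutant. Its level was 36.2 to 66 CPM (median 44.3) in R172H tumours, 57.0, 76.5 and 60.8 CPM in R245W and 44.0, 25.5, 30, 52.1 and 30.2 CPM in R270H tumours. The R245W libraries lay high in the range and most R270H libraries low. Over 8 contact and 6 structural libraries the mean log2 CPM differed by -0.11 (exact two-sided permutation test over 3003 splits, p = 0.684). In the edgeR fit the contact mean differed from R172H by -0.02 ± 0.22 on the log2 scale (SE, adjusted p = 0.983), with R245W at 0.40 and R270H at -0.43, so Trp53 is a gene whose contact genotypes lay on opposite sides. Cdkn1a, the p53 target that arrests the cell cycle, differed by 0.69 ± 0.35 (R245W 1.13, R270H 0.26, adjusted p = 0.331), and Mdm2, the target that marks p53 for breakdown, by 0.24 ± 0.16 (R245W 0.02, R270H 0.45, adjusted p = 0.489).

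**Figure D1:**
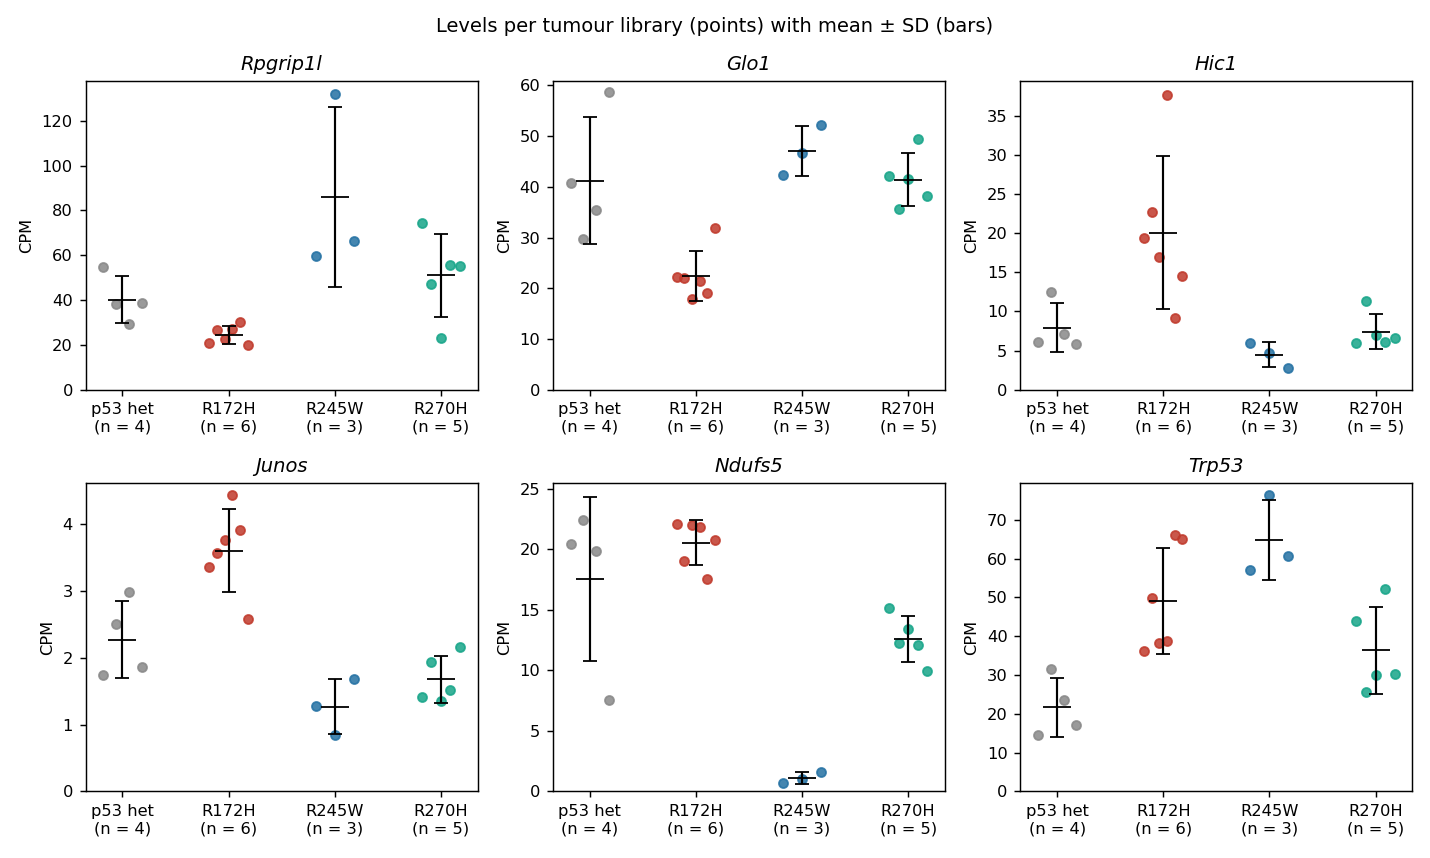
Level in CPM (vertical axes, starting at 0) of Trp53 and of the 5 genes with gene names that passed the test, in each tumour library (points) by genotype, with the mean and SD (bars). All 8 contact libraries lie above all 6 R172H libraries for Glo1 and below them for Junos and Ndufs5, while the Trp53 levels of contact and R172H libraries overlap.

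Few genes separated contact from structural tumours at the threshold of 0.05 on the Benjamini-Hochberg adjusted p. By edgeR's quasi-likelihood test, 9 of 20616 genes passed (0.0437%), and 8 of them had both contact genotypes on the same side (0.0388%), 4 higher (0.0194%) and 4 lower (0.0194%) than R172H. At an unadjusted p under 0.05 there were 3378 genes (16.4%), of which 1635 lay higher on the same side (7.93%) and 1629 lower (7.9%). The count depended on the tool, since DESeq2 gave 815 same-side genes and limma voom 365, and both sets held all 8 genes of edgeR. The 8 contact libraries all lay above the 6 R172H libraries in 72 genes (0.349%) and all below in 55 (0.267%).

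Taken one at a time, the contact genotypes differed in how many genes set them apart from R172H. R245W against R172H gave 32 genes (0.155%) and R270H against R172H 1088 (5.28%), and with the kind of title as a covariate these counts were 41 and 1. Only p53 het has titles of both kinds, so that fit estimated the title effect from those 4 tumours alone. For R270H a library effect and lost precision cannot be told apart in these counts. In that fit Glo1, Rpgrip1l, Hic1 and Junos did not pass (adjusted p 0.170 to 0.329), and Ndufs5 and Rpl3-ps1 did. The log2 differences of the genes that did not pass were 0.77 for Glo1, 1.65 for Rpgrip1l, -1.54 for Hic1 and -1.40 for Junos, against 0.98, 1.43, -1.80 and -1.30 without the covariate. A set of 5 genes passed in both, all higher (0.0243%): Rpgrip1l, Glo1, the pseudogenes Gm14292 and Atp6v0c-ps2 and the small nuclear RNA gene Gm25813. In R270H, Gm14292 and Atp6v0c-ps2 rested largely on R270H 1, with 2.33 and 14.7 CPM. The other R270H libraries had at most 0.264 and 0.507 CPM, against at most 0.104 and 0.296 CPM in R172H. In p53 het the 2 pseudogenes reached 3.92 and 21.9 CPM. R270H against R245W gave 255 genes (1.24%), against 8 same-side genes of the contact mean. With the kind of title as a covariate these counts were 8 and 4. The kind of title and the genotype cannot be told apart between R270H and R245W.

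**Figure D2:**
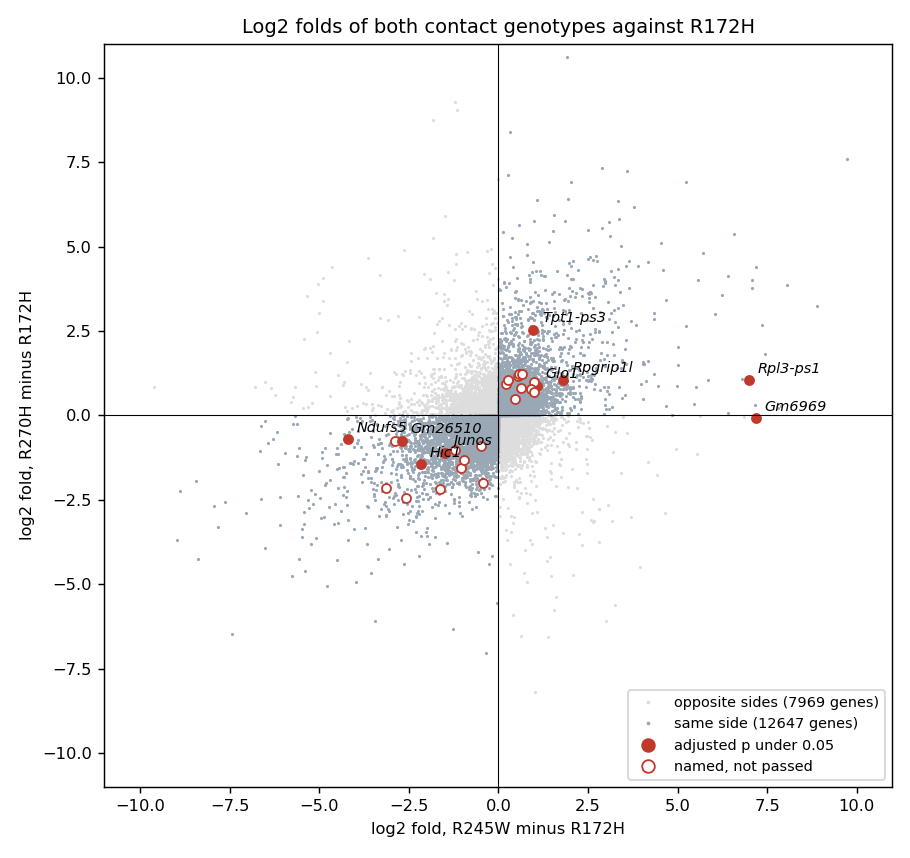
Log2 fold of R245W against R172H (horizontal) and of R270H against R172H (vertical) for all 20616 tested genes, which share the same R172H libraries. Filled red points are the 9 genes that passed in the contact mean and open red points are named genes that did not pass. Genes in the upper right and lower left parts (12647, darker grey) are those with both contact genotypes on the same side, and Gm6969 is the gene that passed outside them.

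Among the genes that passed, Glo1 and Rpgrip1l were higher in contact tumours. Glo1 encodes glyoxalase I, which clears methylglyoxal, a toxic by-product of glycolysis, and lies on GRCm38 chr17:30584936-30626871, minus strand. Its level was 17.9 to 31.8 CPM (median 21.7) in R172H, 42.4, 46.6 and 52.1 CPM in R245W and 42.1, 35.6, 41.6, 49.4 and 38.1 CPM in R270H tumours. All 8 contact libraries lay above all R172H libraries. R245W differed by 1.07 ± 0.20 (adjusted p = 0.0435), R270H by 0.88 ± 0.18 (adjusted p = 0.0149) and the contact mean by 0.98 ± 0.17 on the log2 scale (adjusted p = 0.0436). The p53 het tumours had 40.8, 29.8, 35.4 and 58.8 CPM, of which 1 lay within the R172H range and 3 above it. The call of Glo1 was kept in 4 of 18 fits that left out 1 library, with a largest adjusted p of 0.137 without R172H 4.

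Rpgrip1l encodes a protein of the transition zone at the base of the primary cilium (GRCm38 chr8:91217030-91313262, minus strand). Its level was 20.1 to 30 CPM (median 24.6) in R172H, 59.5, 132 and 66.3 CPM in R245W and 74.5, 47.2, 23.2, 55.6 and 55.0 CPM in R270H tumours. R270H 3 lay within the R172H range and the other 7 contact libraries above it. The p53 het tumours had 54.5, 38.1, 29.4 and 38.9 CPM, against at most 30 CPM in R172H, so most of them also lay above R172H. The contact mean was higher by 1.43 ± 0.25 (adjusted p = 0.0436), with R245W at 1.81 (adjusted p = 0.0153) and R270H at 1.06 (adjusted p = 0.0284). Leaving out 1 library kept the call in 6 of 18 fits, with a largest adjusted p of 0.142 without R172H 1.

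Hic1 and Junos were lower in contact tumours. Hic1 encodes a transcriptional repressor known as a p53 target and tumour suppressor (GRCm38 chr11:75164565-75169519, minus strand). It was at 9.21 to 37.7 CPM (median 18.1) in R172H, 5.92, 4.71 and 2.83 CPM in R245W and 5.90, 11.3, 6.98, 6.15 and 6.64 CPM in R270H tumours. Only R270H 2 reached the R172H range. The contact mean was lower by 1.80 on the log2 scale (-1.80 ± 0.30, adjusted p = 0.0436), with R245W at -2.16 (adjusted p = 0.05, not passed) and R270H at -1.44 (adjusted p = 0.0229). Levels in p53 het were 6.10, 12.5, 7.14 and 5.80 CPM, of which 1 lay within the R172H range and 3 below it. The call was kept in 7 of 18 fits without 1 library, with a largest adjusted p of 0.137 without R172H 4.

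Junos is an antisense transcript beside Jun, which encodes a subunit of the AP-1 transcription factor (GRCm38 chr4:95051534-95167318, plus strand). Its level was 2.57 to 4.44 CPM (median 3.66) in R172H, 1.28, 0.847 and 1.68 CPM in R245W and 1.42, 1.94, 1.35, 1.52 and 2.17 CPM in R270H tumours. All 8 contact libraries lay below all R172H libraries. The p53 het tumours had 1.74, 2.50, 2.99 and 1.87 CPM, against at least 2.57 CPM in R172H, so most of them also lay below R172H. The contact mean differed by -1.30 ± 0.22 (adjusted p = 0.0436), with R245W at -1.5 (adjusted p = 0.0645) and R270H at -1.10 (adjusted p = 0.0202). Jun itself was at 49.3 to 95.8 CPM (median 77.4) in R172H, 53.3, 24.5 and 31.2 CPM in R245W and 48.0, 34.0, 48.3, 49.9 and 30.1 CPM in R270H tumours, and differed by -0.94 ± 0.22 (adjusted p = 0.0862, not passed). The strand setting of the count is not given in the sources used here, so reads of Jun and Junos cannot be told apart. Junos kept its call in 5 of 18 fits without 1 library, with a largest adjusted p of 0.137 without R172H 4.

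Ndufs5, a subunit of complex I of the respiratory chain, also differed between the contact genotypes themselves (GRCm38 chr4:123712710-123718202, minus strand). It was at 17.6 to 22.1 CPM (median 21.3) in R172H, 15.2, 12.2, 13.4, 12.1 and 9.96 CPM in R270H and 0.662, 1.04 and 1.64 CPM in R245W tumours. All contact libraries lay below R172H, and those of R245W far below those of R270H. The p53 het tumours had 20.5, 22.4, 19.8 and 7.57 CPM, of which p53 het 4 lay below every R270H library. The contact mean differed by -2.45 ± 0.24 (adjusted p = 6.78e-05), R245W by -4.20 ± 0.37 (adjusted p = 1.21e-05) and R270H by -0.71 ± 0.25 (adjusted p = 0.101, not passed). R270H exceeded R245W by 3.49 ± 0.36 on the log2 scale (adjusted p = 1.01e-04). The difference in Ndufs5 passed in 28 of 28 alternative fits, which all rest on the same deposited counts and cannot test how reads were assigned. Of the other 31 nuclear-encoded respiratory chain genes measured none passed, and the list's median was 0.14 against -0.01 over all genes.

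Outside the naming rule, which passed over pseudogenes and gene models, 4 further genes passed and are named here after their values were seen. The ribosomal protein pseudogene Rpl3-ps1 had 70.8, 97.2 and 111 CPM in R245W tumours and at most 2.07 CPM in any other tumour, and its contact mean differed by 4.01 ± 0.32 (adjusted p = 8.14e-06). The pseudogene Gm6969 had 51.1, 50.0 and 78.0 CPM in R245W and at most 0.670 CPM in the R172H and R270H tumours, with R245W at 7.18 and R270H at -0.08. R270H differed from R245W by -5.94 in Rpl3-ps1 (adjusted p = 4.04e-07) and by -7.26 in Gm6969 (adjusted p = 5.67e-05). The pseudogene Tpt1-ps3 was higher (1.76, R245W 0.97 and R270H 2.54) and the long non-coding RNA Gm26510 lower (-1.72, R245W -2.70 and R270H -0.75), both with an adjusted p of 0.0436. Reads of a pseudogene and its parent gene can be split by the mapping, so the levels of Rpl3-ps1, Gm6969 and Tpt1-ps3 are uncertain. The R245W tumours with high Gm6969 are those with Ndufs5 at 0.662 to 1.64 CPM. Whether the assignment of reads had a part in the low Ndufs5 was not tested.

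None of the next 10 higher genes by p-value passed (adjusted p 0.0625 to 0.0795). Among them Ncl, the abundant nucleolar protein nucleolin, was at 163 to 220 CPM (median 184) in R172H, 308, 387 and 344 CPM in R245W and 312, 231, 250, 515 and 290 CPM in R270H tumours. The contact libraries all lay above R172H, and the difference was 0.84 ± 0.17 (R245W 0.90, R270H 0.79, adjusted p = 0.0795). In p53 het tumours Ncl was at 168 to 233 CPM, near R172H. Gar1, a protein of the small nucleolar particles that modify ribosomal RNA, was at 6.74 to 8.01 CPM (median 6.96) in R172H, 8.92, 18 and 16.1 CPM in R245W and 11, 10.9, 10.6, 14.4 and 11.6 CPM in R270H tumours. Gar1 likewise did not overlap, with a difference of 0.85 ± 0.17 (R245W 1, R270H 0.70, adjusted p = 0.0795).

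The other 8 of these 10 genes lay higher in both contact genotypes, some of them unequally. Rps9, a protein of the small ribosomal subunit, was at 166 to 214 CPM (median 195) in R172H, 214, 414 and 283 CPM in R245W and 573, 269, 401, 539 and 479 CPM in R270H tumours, a difference of 0.95 ± 0.20 (R245W 0.67, R270H 1.24). The RNA-binding proteins Tardbp (R245W 0.22, R270H 0.94) and Hnrnpa2b1 (R245W 0.27, R270H 1.06) lay high in R270H and near R172H in R245W, and for Tardbp R270H exceeded R245W by 0.72 ± 0.16 (adjusted p = 0.0399). Snrnp48, a protein of the minor spliceosome, differed by 0.54 in R245W and 1.16 in R270H, and Wdr77, a partner of the arginine methyltransferase Prmt5, by 0.63 and 0.83. Rnf219, a ubiquitin ligase (R245W 0.99, R270H 1), and Fgfr1op2 (R245W 0.46, R270H 0.47) differed alike in both genotypes. Sugt1, a co-chaperone of Hsp90, differed by 0.59 in R245W and 1.22 in R270H. Of the 12 higher genes named by the rule, 8 had no overlap between contact and R172H libraries, against 0.349% of all genes, and nothing is read from this count because the p-values of the same comparison chose the 12 genes.

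The next 9 lower genes did not pass either (adjusted p 0.0599 to 0.0795). P4ha3, a collagen prolyl hydroxylase subunit, was at 6.16 to 65.9 CPM (median 18.9) in R172H, 1.81, 4.75 and 2.30 CPM in R245W and 6.41, 9.99, 7.53, 2.11 and 3.28 CPM in R270H tumours, a difference of -2.63 ± 0.48 (R245W -3.13, R270H -2.14). Sod3, the extracellular superoxide dismutase, was at 13.9 to 98.2 CPM (median 41.9) in R172H, 14.7, 1.93 and 6.31 CPM in R245W and 8.19, 10.6, 12.9, 6.45 and 3.63 CPM in R270H tumours, a difference of -2.52 ± 0.48 (R245W -2.58, R270H -2.45). Both genes varied widely within R172H, and the lowest R172H library of each lay within the contact range. Arsa, the lysosomal arylsulfatase A, had a narrower spread, with 30.8 to 56.1 CPM (median 46.3) in R172H, 23.3, 12.8 and 20.7 CPM in R245W and 25.3, 18.4, 24.1, 15.4 and 23.9 CPM in R270H tumours. Its groups did not overlap (-1.12 ± 0.22, R245W -1.20, R270H -1.03).

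Bcl3, a nuclear partner of NF-kB, and Whrn, a scaffold protein of sensory hair cells, also had no overlap between contact and R172H libraries, with differences of -1.30 ± 0.26 (R245W -1.05, R270H -1.55) and -1.91 ± 0.38 (R245W -1.64, R270H -2.17). Bcl3 was at 21.4 to 40.2 CPM (median 22.6) in R172H, 16.2, 8.85 and 12.6 CPM in R245W and 6.45, 10.2, 12.7, 3.88 and 11.1 CPM in R270H tumours. The ephrin ligand Efnb2 (-1.14 ± 0.23, R245W -0.95, R270H -1.32) and Ubl7 (-0.70 ± 0.14, R245W -0.50, R270H -0.91) lay lower in both genotypes with overlap. In contrast, Gnas, the stimulatory G protein subunit, was at 26.2, 12.6 and 20.1 CPM in R245W against 5.90, 7.39, 5.58, 7.50 and 6.46 CPM in R270H and 20.7 to 37.3 CPM (median 24.4) in R172H tumours. R270H was lower than R245W in Gnas by 1.58 on the log2 scale (-1.58 ± 0.32, adjusted p = 0.0274). Arhgap32, a GTPase-activating protein, showed the opposite order, with R245W at -2.90 (adjusted p = 0.0370) and R270H at -0.75 (adjusted p = 0.274). Of the 12 lower genes named by the rule, which the same p-values chose, 5 had no overlap, against 0.267% of all genes.

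Ribosome biogenesis genes lay higher in contact tumours throughout their list. They encode the nucleolar machinery that makes and processes ribosomal RNA. All 24 members lay higher in both contact genotypes than in R172H, against 30% of all genes, and 14 had an unadjusted p under 0.05 in that direction, against 7.93% of all genes. None passed adjustment over all genes. The median difference was 0.51 (R245W 0.65, R270H 0.40), against -0.01 over all genes, and 0.33 to 0.66 over the alternative fits, the lowest without R172H 2 and R245W 2. Without R245W 2 alone it was 0.36, and the R245W median 0.28. With the kind of title as a covariate it was 0.43, and the R270H median 0.14. Besides Ncl and Gar1, the members of lowest p were Nip7 (0.88, R245W 0.83, adjusted p = 0.0977) and Wdr12 (0.78, R245W 0.70, adjusted p = 0.101), both processing factors of the large subunit. Wdr12 was at 18.9 to 26.9 CPM (median 23.5) in R172H, 32.0, 54.1 and 28 CPM in R245W and 49.8, 30.5, 30.1, 66.3 and 35.7 CPM in R270H tumours, again with no overlap.

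Cytosolic ribosomal protein genes lay on the same side. Of 38 members, 34 lay higher in both contact genotypes (30% of all genes), 1 lower in both and 3 split, and 23 had an unadjusted p under 0.05 as higher genes (7.93% of all genes). Their median was 0.59 (R245W 0.54, R270H 0.68), and 0.31 to 0.77 over the alternative fits. Without R245W 2 the median was 0.36, and 0.08 in R245W alone. With the kind of title as a covariate it was 0.36, and 0.21 in R270H. Rpl10 (0.99, R245W 0.42, adjusted p = 0.0795), Rps4x (0.85, R245W 0.65, adjusted p = 0.0844) and Rpl5 (0.84, R245W 0.38, adjusted p = 0.0905) had the lowest p after Rps9, and none passed. R245W 2 also set the level of single members in R245W: Rpl10 was at 76.8, 169 and 81.1 CPM in R245W tumours, the middle value in R245W 2, against 65.0 to 101 CPM (median 75.3) in R172H and 189 to 326 CPM in R270H. Ribosomal protein genes have many processed pseudogenes, so their counts are uncertain.

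Per library, the median of the ribosome biogenesis genes, each centred on its mean over the 18 tumours, was -0.39 to -0.20 on the log2 scale in R172H. It was -0.03, 0.81 and 0.02 in R245W and 0.24, -0.18, -0.07, 0.60 and 0.02 in R270H tumours, so the contact libraries lay above R172H, R270H 2 by a narrow margin. The p53 het tumours had -0.19, -0.01, -0.06 and 0.46, again above R172H. The same summary of the ribosomal proteins was -0.64 to -0.14 in R172H, -0.35, 0.71 and -0.23 in R245W and 0.65, -0.45, 0.16, 0.79 and 0.40 in R270H tumours, and overlapped.

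**Figure D3:**
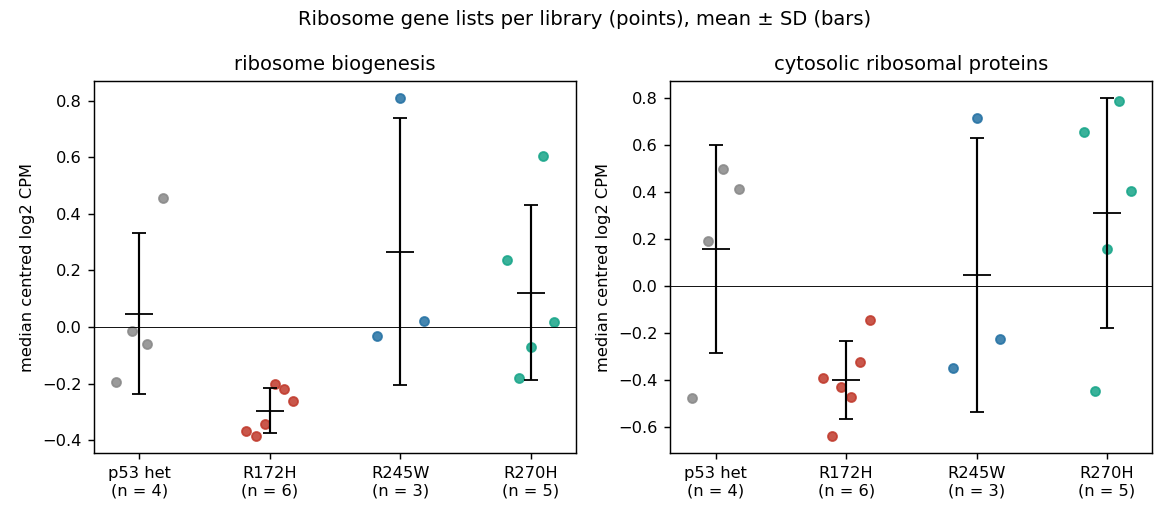
Median over the genes of a list of log2 CPM centred on each gene's mean over 18 tumours (vertical axes), per library (points) with the mean and SD per genotype (bars), for ribosome biogenesis genes (left) and cytosolic ribosomal proteins (right). The R172H libraries span -0.39 to -0.20 in the left panel, below the contact libraries, and overlap the contact libraries in the right panel.

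Lists on p53 itself showed little. Of 36 p53 activated target genes, 12 lay higher in both contact genotypes (30% of all genes), 9 lower (31.4% of all genes) and 15 split. The death receptor Tnfrsf10b was the 1 same-side member with an unadjusted p under 0.05, against 7.93% of all genes as higher and 7.9% as lower genes. Tnfrsf10b was at 17, 21.6 and 16.1 CPM in R245W, above 1.68 to 8.26 CPM (median 5.91) in R172H, and at 6.18, 5.02, 5.96, 8.93 and 3.90 CPM in R270H tumours. All R245W libraries and 1 R270H library lay above the R172H range. R245W differed by 1.77 (adjusted p = 0.0976) and R270H by 0.17, and neither these nor their difference passed (-1.60, adjusted p = 0.0572). The list's median was 0.12 (R245W -0.10, R270H 0.17). Of 26 genes of the p53 family, its ligases and partners, 11 lay higher, 6 lower and 9 split, with a median of 0.08 and the partner Ppp1r13b lowest in p (-0.61, adjusted p = 0.259).

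None of the genes reported elsewhere as gain-of-function targets of mutant p53 passed. Of 24 members, 5 lay higher in both contact genotypes, 11 lower (31.4% of all genes) and 8 split, and 4 had an unadjusted p under 0.05 as lower genes (7.9% of all genes). The median was -0.22 (R245W -0.19, R270H -0.16), and it was -0.06 with the kind of title and -0.38 with a score of neutrophil and erythroid genes (the marrow score) as a covariate. Egfr, the receptor of epidermal growth factor, was at 23.9 to 181 CPM (median 94.0) in R172H, 40.5, 14.3 and 21.5 CPM in R245W and 34.8, 43.5, 83.0, 48.0 and 26.3 CPM in R270H tumours (-1.54 ± 0.40, R245W -1.98, R270H -1.09, adjusted p = 0.0977). The lowest R172H library lay within the contact range. Nfkb2 (-0.43) and Pdgfrb (-0.47) were also below 0. Heat shock proteins and chaperones, which bind unfolded p53, were higher in 18 of 31 (30% of all genes), lower in 3 and split in 10. Their median was 0.29 (R245W 0.30, 0.48 with the marrow score), and 9 higher genes had an unadjusted p under 0.05 (7.93% of all genes). Hspd1, a mitochondrial chaperone, differed by 0.76 (R245W 0.92, adjusted p = 0.138) and the inducible Hspa1a by 2.02 (R245W 2.02, adjusted p = 0.152). Zinc transporters and metallothioneins were higher in 7 of 22 (30% of all genes) and lower in 8 (31.4% of all genes), with a median of 0.02 (R245W -0.15) that changed sign in 11 of 28 alternative fits.

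Among growth and stress lists, the proteasome had 18 of 31 subunits higher (30% of all genes), 1 lower and 12 split, with a median of 0.27 (R245W 0.07, R270H 0.43). DNA replication had 22 of 33 higher (30% of all genes), 1 lower and 10 split, with a median of 0.32 (R245W 0.37, R270H 0.14). With the kind of title as a covariate, these medians were 0.04 and 0.00, and without R245W 2 that of DNA replication was 0.07. With the marrow score the proteasome median was 0.49. Psma7 (0.69, R245W 0.40, adjusted p = 0.134) and the replication gene Rfc4 (1.01, R245W 0.63, adjusted p = 0.215) were examples, and none passed. Mitosis (median 0.10), the unfolded protein response (0.02), mevalonate and cholesterol synthesis (0.06), hypoxia and glycolysis (0.23, R245W 0.01) and MLL and MOZ histone modifiers (-0.06) lay nearer to all genes, and each changed sign in 1 to 8 of 28 alternative fits.

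Wnt target and feedback genes leaned to lower values in contact tumours. Of 23 members, 5 lay higher in both contact genotypes, 13 lower (31.4% of all genes) and 5 split, and 8 had an unadjusted p under 0.05 as lower genes (7.9% of all genes). The median was -0.70 (R245W -0.50, R270H -0.41), and -0.77 to -0.41 over the alternative fits, the smallest in size with the kind of title as a covariate. Sfrp4, a secreted Wnt antagonist, was at 32.0 to 522 CPM (median 166) in R172H, 10.2, 1.04 and 11.3 CPM in R245W and 12.1, 32.9, 151, 15.1 and 4.43 CPM in R270H tumours (-3.71 ± 0.83, R245W -4.97, R270H -2.45, adjusted p = 0.0839). R270H 2 and 3 lay within the R172H range. Lgr5 (-3.22), a receptor that strengthens Wnt signals, Ccn5 (-1.88) and the antagonist Sfrp1 (-2.30) followed, and none passed. In the TGF-beta response, 6 of 22 lay higher (30% of all genes) and 8 lower (31.4% of all genes), with a median of -0.15 (R245W -0.19) and the target Pmepa1 lowest in p (-1.44, adjusted p = 0.0836). Invasion and mesenchymal transition genes had a median of -0.18 (R245W -0.29, R270H -0.03), with Fn1 at -1.02. Against 31.4% of all genes, interferon response genes were lower in 16 of 28 (median -0.50, R245W -0.92, R270H -0.08) and antigen presentation genes in 15 of 20 (median -0.41, R245W -0.41, R270H -0.32), with Tap2 at -0.70. Without R172H 3, the library highest in both lists, these medians were 0.46 and -0.13, and without R245W 2 that of antigen presentation was -0.20.

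Immediate early genes, which respond within minutes to growth signals and to handling of tissue, were lower in both contact genotypes in 12 of 18 (31.4% of all genes), higher in 1 and split in 5 (median -0.51, R245W -0.94, R270H -0.32). The median was -0.08 without R172H 6 and -0.83 without R270H 3, the libraries with the highest sums. Their summed level was 360 to 1230 CPM in R172H, 298 to 343 CPM in R245W and 205 to 959 CPM in R270H tumours, and its part in the lower Jun and Junos was not tested. Posterior Hox genes varied widely between tumours, with Hoxa13 at 0 to 37.3 CPM in R172H, at most 0.0941 CPM in R245W and 0.0443 to 5.24 CPM in R270H tumours, and their median of 0.42 changed sign in 3 alternative fits.

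**Figure D4:**
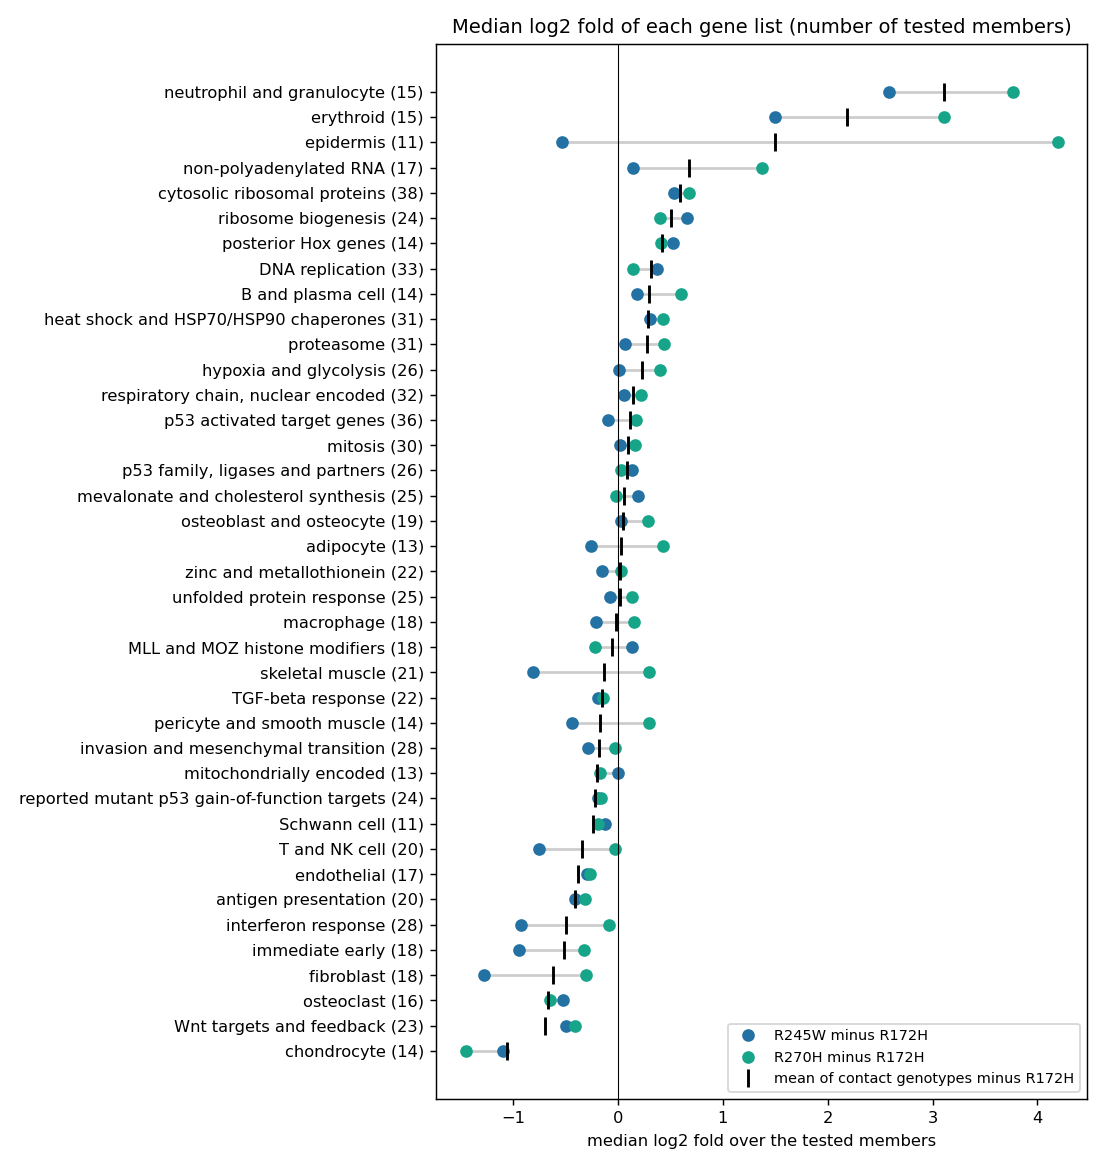
Median log2 fold against R172H over the tested members of 39 gene lists (member counts in brackets), for R245W (blue), R270H (green) and their mean (black bars). By the mean of both genotypes the neutrophil and erythroid lists lie farthest above 0 and the chondrocyte list farthest below, while the epidermis list is highest in R270H (4.20) and the fibroblast list lowest in R245W (-1.28). Ribosome biogenesis and ribosomal protein genes lie above 0 in both genotypes. Medians of R245W and R270H share the R172H libraries.

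Neutrophil and erythroid lists had the highest medians of the contact mean. All 15 measured neutrophil and granulocyte markers of 16 lay higher in both contact genotypes, against 30% of all genes. Of these 12 had an unadjusted p under 0.05, against 7.93% of all genes. Their median was 3.11 (R245W 2.59, R270H 3.77), and 4.75 with the kind of title as a covariate. Of 15 erythroid markers 14 lay higher (30% of all genes) and 1 split, 11 at an unadjusted p under 0.05 (7.93% of all genes). The erythroid median was 2.18 (R245W 1.5, R270H 3.11). No marker passed adjustment. S100a9, an abundant neutrophil protein, was at 0.179 to 7.36 CPM (median 0.782) in R172H, 14.6, 1.13 and 30.8 CPM in R245W and 27, 40.5, 5.41, 7.75 and 406 CPM in R270H tumours (4.21 ± 1.19, adjusted p = 0.113). Slc4a1, the anion exchanger of red cells, was at 0.037 to 4.69 CPM (median 0.967) in R172H, 7.24, 5.46 and 16.7 CPM in R245W and 9.01, 18.4, 0.761, 0.169 and 186 CPM in R270H tumours (adjusted p = 0.165).

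Summed over the list, neutrophil markers were at 13.2 to 65.0 CPM in R172H, 22.4 to 268 CPM in R245W and 32.8 to 1680 CPM in R270H tumours, and erythroid markers at 297 to 667 CPM, 335 to 950 CPM and 185 to 2490 CPM. R270H 5 was the highest in both, and groups overlapped. Without R270H 5 the neutrophil median was 2.27 and the erythroid median 1.13, the latter below that of the epidermis list (1.66). Ctsg, Elane, Lcn2 and Prtn3 of the neutrophil list and, among others, Gata1 and Rhag of the erythroid list had no count in at least 1 of the 14 libraries, and Ly6g and Ahsp were not tested. With the marrow score of both lists as a covariate, a setting chosen after the data were seen, Ndufs5 and Rpl3-ps1 passed and Glo1 (adjusted p = 0.0685), Rpgrip1l (0.0700), Hic1 (0.0822) and Junos (0.0629) did not, while the ribosome biogenesis median was 0.66. The log2 differences in that fit were 1.04 for Glo1, 1.38 for Rpgrip1l, -1.60 for Hic1 and -1.49 for Junos. Other blood cell lists lay nearer to 0 in the main fit, with medians of 0.30 for B and plasma cells, -0.02 for macrophages and -0.34 for T and NK cells. With the marrow score these medians were -0.70, -0.18 and -1.60, and with the kind of title 1.47, -0.07 and -0.37.

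**Figure D5:**
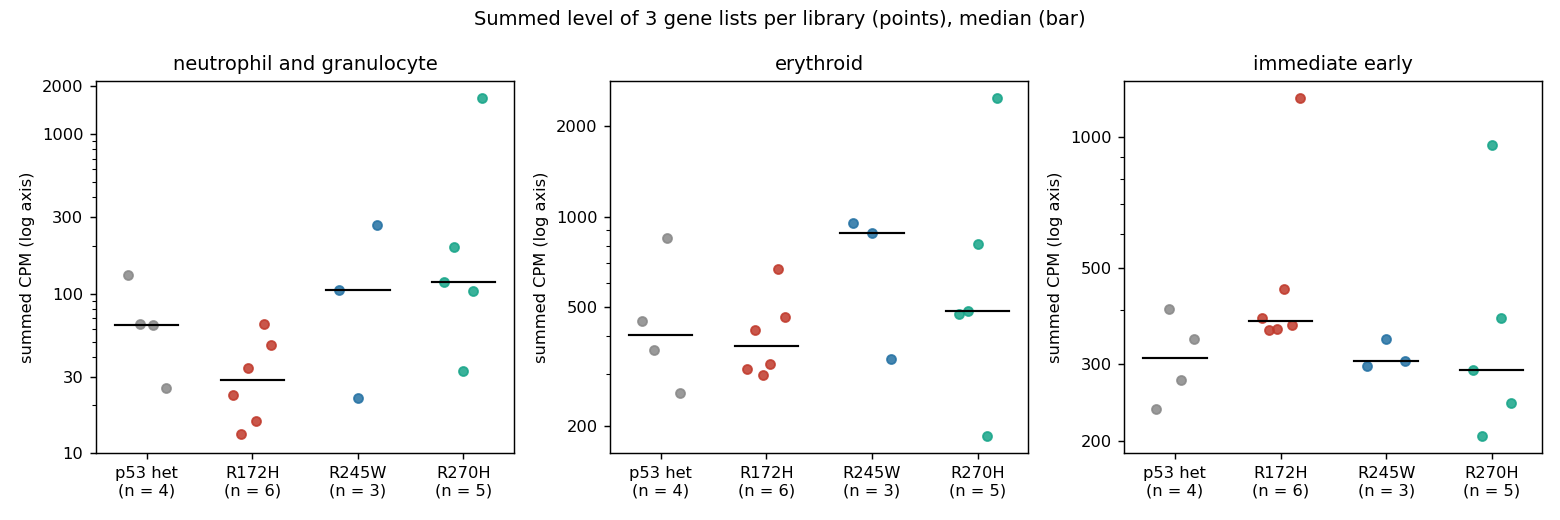
Summed CPM (log axes) of the neutrophil and granulocyte, erythroid and immediate early lists in each tumour library (points) by genotype, with the median (bar). R270H 5 is highest in the first and second panel with 1680 and 2490 CPM, R172H 6 is highest in the third with 1230 CPM, and the groups overlap in all panels.

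Osteoclast and fibroblast lists had medians below 0 in both contact genotypes, and that of osteoclast genes in R245W rested largely on R245W 2. The 16 osteoclast genes were lower in both contact genotypes in 13 (31.4% of all genes) and split in 3 (median -0.66, R245W -0.53, R270H -0.65). Their summed level was 8595 to 12754 CPM in R172H, 953 to 10281 CPM in R245W and 631 to 12463 CPM in R270H tumours. Nfatc1, the transcription factor that drives osteoclast formation, was at 252 to 459 CPM (median 344) in R172H, 355, 61.5 and 329 CPM in R245W and 90.3, 136, 148, 31.4 and 117 CPM in R270H tumours, and did not pass (adjusted p = 0.183). Its low values were those of all 5 R270H tumours and of R245W 2. Fibroblast genes were lower in 11 of 18, against 31.4% of all genes (median -0.62, R245W -1.28, R270H -0.31), with summed levels of 2877 to 13399 CPM in R172H, 2082 to 3785 CPM in R245W and 2714 to 9266 CPM in R270H tumours, and Lum (-2.81) and Postn (-2.67) as members of lowest p. The fibroblast median was -0.25 without R172H 4 and -1.11 without R245W 3, and the osteoclast median -0.36 (R245W -0.14) without R172H 2 and R245W 2. Without R245W 2 alone the osteoclast median was -0.44, and its R245W median -0.15. Siglec15 of the osteoclast list and Clec3b of the fibroblast list had no count in at least 1 of the 14 libraries. The part of stromal content in the lower P4ha3, Sod3 and Sfrp4 was not tested.

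Chondrocyte genes had the lowest median of the contact mean, -1.06 (R245W -1.10, R270H -1.45). Of 14 members, 7 lay lower in both contact genotypes (31.4% of all genes), 2 higher and 5 split. The median was -0.41 without R172H 2, and that of R270H was 0.09 with limma voom. Summed over the list, the level was 334 to 2223 CPM (median 1235) in R172H and 882 to 2026 CPM (median 981) in R245W. In R270H tumours the sum was 578 to 2416 CPM (median 1851), so it overlapped R172H and was not lower. Snorc (-3.83) and Col9a2 (-4.91) rested largely on 1 library: Col9a2 was at 74.2 CPM in R172H 2 and at 0.474 to 1.41 CPM in the other R172H tumours, against at most 1.55 CPM in any contact tumour. Genes of Schwann cells included Ngfr, the low-affinity receptor of neurotrophins, at 2.32 to 160 CPM (median 20.7) in R172H, 1.77, 0.0471 and 0.861 CPM in R245W and 0.549, 5.76, 0.592, 1.73 and 0.266 CPM in R270H tumours (-5.26 ± 1.12, R245W -5.75, R270H -4.77, adjusted p = 0.0795). R270H 2 was the contact library within the R172H range. The median of the 11 Schwann cell genes was -0.24, and 0.10 without R172H 6. T and NK cell genes were lower in 11 of 20, against 31.4% of all genes (median -0.34, R245W -0.76, R270H -0.03), where Gzmb rested on 71.6 CPM in R172H 4. Endothelial genes had a median of -0.38, which was 0.00 with the kind of title as a covariate. Osteoblast and osteocyte (0.05), adipocyte (0.03), pericyte and smooth muscle (-0.17) and skeletal muscle (-0.13) lists had medians nearer to 0. The epidermis list (median 1.5, R245W -0.53, R270H 4.20) was high in R270H 3 and 4, with summed levels of 114 and 432 CPM against at most 11.6 CPM in the other 12 tumours, and its median was 0.08 without R270H 4.

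Non-polyadenylated RNA, whose level depends on how a library is made, was higher in both contact genotypes in 10 of 17 genes (30% of all genes), lower in 1 and split in 6, with a median of 0.14 in R245W and 1.37 in R270H. Rn7s2 was at 0.111 to 0.759 CPM (median 0.377) in R172H, 0.795, 1.18 and 0.820 CPM in R245W and 6.77, 6.47, 12.8, 6.83 and 7.61 CPM in R270H tumours. In p53 het it was at 0.805 and 0.948 CPM in the libraries whose titles carry a serial number and at 34.3 and 30.4 CPM in those without one, so Rn7s2 was high in each of the 7 tumour libraries without a serial number. With the kind of title as a covariate the list's median was 0.06. The part of library preparation in the 1088 genes of R270H was not tested, since that covariate rests on the 4 p53 het tumours. Mitochondrially encoded genes had a median of -0.20.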

How the data were processed

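Bulk RNA sequencing measured gene expression in 18 osteosarcomas, of which 14 with a missense allele were compared and 4 p53 het tumours shared the fit. A cell line's 2 libraries were not analysed here. Per the submitters' processing notes, the authors aligned reads to GRCm38 with STAR 2.6.0b and used DESeq2. The deposited table holds raw counts per gene for 49585 mouse gene IDs, of which 49326 matched a symbol. The counting program, its annotation and strand setting are not given in the sources used here. Gene positions and codons come from GENCODE M21 on GRCm38.

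Groups follow the labels. The fit used edgeR 4.0.16 in R 4.3.3. The filter filterByExpr by genotype, with a minimum count of 10 and a minimum total count of 15, kept 20616 genes, and libraries were scaled by TMM. A quasi-likelihood model with 1 mean per genotype and 14 residual degrees of freedom gave the contrasts (R245W + R270H)/2 minus R172H, each contact genotype minus R172H and R270H minus R245W. p-values were adjusted by Benjamini-Hochberg over all genes, and measure only the spread between tumours. The SE of a log2 fold is its size over the square root of F. CPM are TMM-scaled, and a prior count of 2 entered log2 CPM. Total counts of 20.1 to 28.8 M (megacounts) per mutant library set the precision.

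Named genes were, per direction, up to 12 that passed, lay on the same side and had a mean of at least 1 CPM, ordered by the smaller of both folds and filled up by the lowest p-values. Gene models, pseudogenes and receptor segments were passed over, and Trp53, Cdkn1a and Mdm2 were always given. The 39 gene lists are described by counts, medians and their members of lowest p. The members, lists and settings were chosen with earlier results of these data known. The test was tried on simulated data. Alternatives were DESeq2 1.42.0, edgeR with DESeq2 size factors, limma 3.58.1 voom with quality weights, no filter on low counts, only the 14 mutant tumours, a skeletal muscle score or the kind of title as covariate, 8 contact libraries weighted equally, and leaving out each library. After the data were seen, settings were added: a marrow score as covariate, leaving out R172H 2 and R245W 2 together, and only libraries whose titles carry a serial number.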

Additional observations from a re-analysis of the deposited data

Results flagged for a closer look

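Library values of R172H, R270H and p53 het were checked for a library far from the others of its genotype by Dixon's 95% critical values. The R245W libraries were too few for this check, so none of them could be flagged. Under these critical values chance flags about 1 in 20 groups of normally distributed values. Of 123 groups checked, 16 held such a library. For named genes these were Glo1 in R172H 6 (31.8 CPM, next 22.3), Ncl in R270H 4 (514.8 CPM, next 312), Gar1 in R270H 4 (14.4 CPM, next 11.6), Hic1 in R270H 2 (11.3 CPM, next 6.98), Bcl3 in R172H 4 (40.2 CPM, next 27.2) and Efnb2 in R270H 2 (33.7 CPM, next 25.4). Among genes outside the naming rule they were Gm14292 in R270H 1 (2.33 CPM, next 0.264), Atp6v0c-ps2 in R270H 1 (14.7 CPM, next 0.507) and Gm26510 in R172H 5 (13.6 CPM, next 6.44). The level of Gm14292 and Atp6v0c-ps2 in the other 4 R270H libraries was at most 0.264 and 0.507 CPM, against at most 0.104 and 0.296 CPM in R172H.

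Among summed lists, ribosome biogenesis stood apart in p53 het 4 (2622 CPM) and R172H 2 (1377 CPM), and chondrocyte markers in p53 het 4 (1011 CPM). R270H 5 stood apart in neutrophil (1680 CPM) and erythroid markers (2490 CPM). Immediate early genes stood apart in R172H 6 (1230 CPM) and R270H 3 (959.4 CPM).

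The 2 contact genotypes differed by edgeR's test of R270H minus R245W in 6 of the named genes. The log2 difference was 0.72 in Tardbp (adjusted p = 0.0399), 3.49 in Ndufs5 (adjusted p = 1.01e-04), -1.58 in Gnas (adjusted p = 0.0274) and 1.95 in Gm26510 (adjusted p = 0.0306). It was -7.26 in Gm6969 (adjusted p = 5.67e-05) and -5.94 in Rpl3-ps1 (adjusted p = 4.04e-07). Their contact mean hence averages genotypes with unlike levels.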

How the results depend on the processing

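No paired analysis was possible because the labels number no replicates and numbers here were given by accession. The 8 same-side genes of the contact mean became 815 with DESeq2, 365 with limma voom, 246 with only the 14 mutant tumours, 54 with 8 contact libraries weighted equally, 4 with the kind of title as covariate and 2 each with no low-count filter, the skeletal muscle score, or without R172H 2 and R245W 2. Leaving out 1 library gave 2 to 44 (44 without p53 het 3). The 5 genes that passed in both contact genotypes became 81 with DESeq2, 23 with limma voom, 7 with only the mutants, 4 with no filter and 3 with the muscle score. Their count was 0 with the kind of title in edgeR, 2 with the marrow score, 1 without R172H 2 and R245W 2, and 0 to 8 without 1 library. At an unadjusted p under 0.05 in both, edgeR gave 246 genes with the kind of title, against 659 in the main fit. The 255 genes of R270H against R245W became 1194, 1047, 638 and 109 with DESeq2, limma voom, only the mutants and no filter, 8 with the kind of title, 74 without R172H 2 and R245W 2, and 48 to 411 without 1 library. R245W against R172H gave 14 to 39 genes without 1 library, 348 with DESeq2, 119 with limma voom, 10 without R172H 2 and R245W 2 and 24 with serial-number titles. R270H against R172H gave 469 to 1323 without 1 library, 2226 with DESeq2, 2294 with limma voom, 633 with no filter and 1 with the kind of title. The cause was not tested.

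Calls of Glo1, Rpgrip1l, Hic1 and Junos were lost without any 1 of R172H 1, 2, 3 or 4, R245W 2 or 3, or R270H 1, 4 or 5 (adjusted p 0.0627 to 0.142). Those of Ndufs5 and Rpl3-ps1 were kept in 28 of 28 alternatives. Over the named genes and alternatives, 729 values kept direction and side of the threshold, 108 fell short of it, 105 newly passed, and 10, all of Trp53, changed sign. These were 0.0497 with limma voom, 0.0733 with the kind of title, 0.088 without R172H 5, 0.08 without R172H 6, 0.03 without R245W 1, 0.0078 without R245W 3, 0.03 without R270H 2, 0.01 without R270H 3, 0.02 without R270H 5 and 0.0299 with the marrow score, against -0.02, and -0.101 to 0.088 without 1 library. The Trp53 difference of -0.11 in log2 CPM was 0.43 for R245W alone (exact permutation p = 0.131), 0.000778 without R270H 2, -2.04 in raw CPM (exact permutation p = 0.815), and -0.22 to 0.000778 without 1 library. Genes at a few counts per library, such as Gm14292 in R172H, are limited by depth.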
